A study of Mus musculus with 36 samples.

Results

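The soleus of mice with a muscle deletion of both ERRalpha and ERRgamma was compared with the soleus of their wild types. These are the libraries titled soleus, ERRalpha/ERRgamma, KO and WT: 3 of each, 6 of the 36 libraries in the series. Gene expression was measured by RNA-seq of whole muscle in 12 groups of 3 libraries: soleus and extensor digitorum longus (EDL), 3 classes of deletion, knockout and wild type. ERR floxed mice had been crossed to mice that carry Cre recombinase under the human alpha-skeletal actin promoter, which is active in muscle fibres and not in the vessels, nerves, fibroblasts and immune cells of the same muscle. All animals were 1-year-old males on the C57BL/6JBom background, housed near 22 °C under 12 h of light a day on a chow diet. The wild types are littermates and carry no deletion by their label, and the ERRalpha/ERRgamma group lacks both receptors in muscle by its label. The column names of the deposited table mark wild-type libraries with FX- and knockout libraries with FXp, read here as floxed without and with Cre, and the groups are called wild type and knockout-labelled below. The soleus ERRalpha and soleus ERRbeta/ERRgamma classes, each with 3 wild types of its own, and the EDL of the ERRalpha/ERRgamma class serve only to show where the ERRalpha/ERRgamma soleus differs.

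The estrogen-related receptors ERRalpha, ERRbeta and ERRgamma (genes Esrra, Esrrb and Esrrg) are orphan nuclear receptors that need no known natural ligand. They bind an extended half-site in DNA and, with the coactivators PGC-1alpha and PGC-1beta, drive genes of mitochondrial respiration, the tricarboxylic acid (TCA) cycle and fatty acid oxidation. Soleus is a slow, postural hindlimb muscle rich in oxidative fibres, while EDL is a fast muscle.

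Values are log2 signals per gene, quantile normalized by the authors, so a difference of 1 is a factor of 2. A change is the mean of the 3 knockout-labelled minus the mean of the 3 wild-type libraries, given as change ± SE from limma. A gene was called when its Benjamini-Hochberg adjusted p over all genes tested was under 0.05, and "rose" and "fell" are used only of called genes. Within the knockout-labelled soleus libraries the correlation across genes was 0.985 to 0.989, and within the wild types 0.980 to 0.983. Genes with a value numbered 14751 to 14951 in the knockout-labelled and 14316 to 14624 in the wild-type libraries, without overlap, and the median change of all 13385 genes tested was +0.11. The soleus ERRbeta/ERRgamma knockout-labelled libraries correlated less among themselves, from 0.947 to 0.975. In wild-type library 2 the summed red blood cell markers were at 11.94, against 9.40 to 9.83 in the other 5 libraries. Wild-type library 3 held the highest Schwann cell markers (summed 7.19, others 4.24 to 5.01), and wild-type library 1 the highest fat markers (9.44).

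The signal of the targeted receptors over their whole genes did not follow the labels in one direction. Esrra (GRCm38 chr19:6910977-6921813) read 5.45, 5.66 and 5.95 in the wild types and 5.12, 5.06 and 5.15 in the knockout-labelled libraries. It was lower in every knockout-labelled library and fell by 0.57 ± 0.12, to 67.3% of wild type (adjusted p = 0.00084), while in EDL of the same class its change was -2.23. The difference between muscles, 1.66, was itself called (adjusted p = 5.69e-08). Esrrg (chr1:187608791-188214885) read 3.54, 3.64 and 3.86 in the wild types and 4.92, 4.92 and 4.84 in the knockout-labelled libraries. It was higher in every knockout-labelled library and rose by 1.21 ± 0.15 (adjusted p = 9.94e-07). Esrrb, which is not targeted in this class, changed by -0.39 ± 0.21 and was not called (adjusted p = 0.257). In EDL of the same class Esrrb fell by 1.60 ± 0.21 (adjusted p = 9.67e-07), from 0.05, 0.30 and 0.73 to -0.95, -1.35 and -1.41. The difference between muscles for Esrrb, 1.21, was called (adjusted p = 0.0215). A value over a whole gene does not show whether a floxed exon is missing, so these signals do not check the labels, and every direction below rests on the labels as read above.

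Among the receptors' partners, Ppargc1a, which encodes PGC-1alpha, read 2.93, 2.68 and 3.70 in the wild types and 5.13, 4.55 and 4.31 in the knockout-labelled libraries. The groups did not overlap, and it rose by 1.56 ± 0.45 (adjusted p = 0.0177). That call was lost without wild-type library 1, wild-type library 2 or knockout-labelled library 1 (1.47, 1.35 and 1.33, adjusted p = 0.0614, 0.0916 and 0.1), and with the 18 soleus libraries (0.0533). Ppara, a nuclear receptor for fatty acids, fell by 1.06 ± 0.17, and Sirt3, a mitochondrial deacetylase, fell by 0.83 ± 0.14. Of 27 coactivators and biogenesis regulators, 3 rose and 3 fell.

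**Figure D1:**
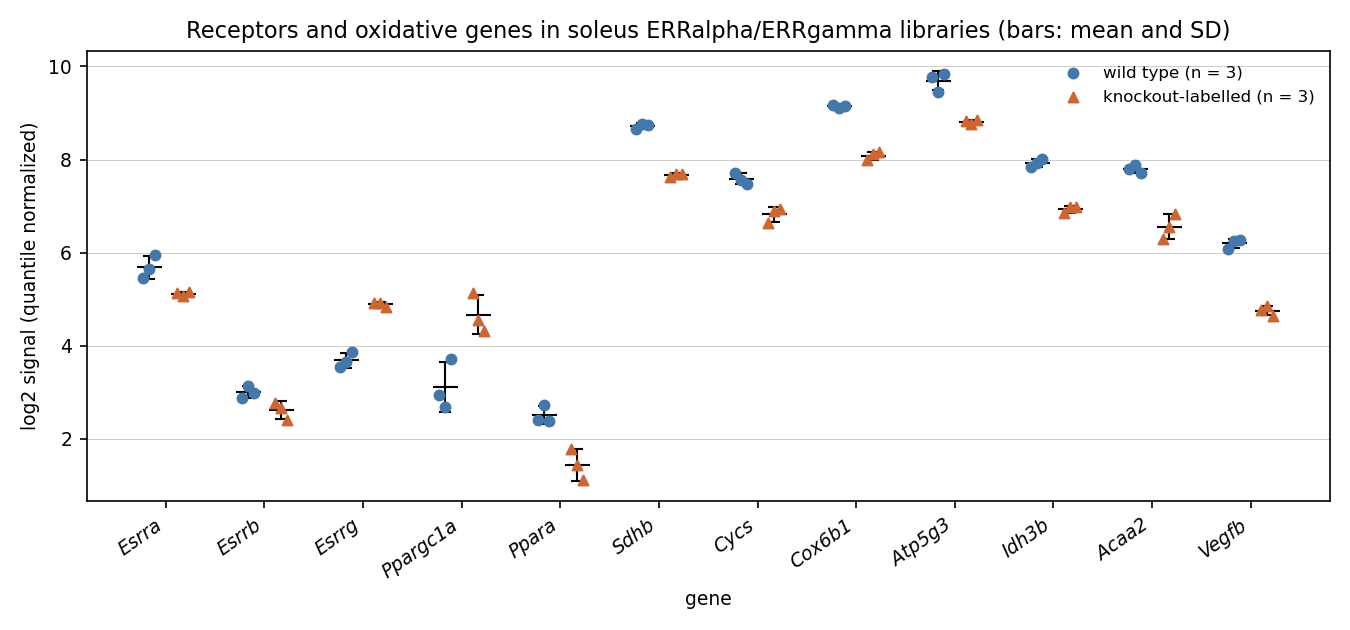
Log2 signal of each library for the 3 receptors, 2 regulators and 7 oxidative or angiogenic genes named in the text. Circles are wild-type and triangles knockout-labelled soleus libraries (n = 3 each), and bars are mean and SD. Esrrg and Ppargc1a sit higher in the knockout-labelled libraries, and Sdhb, Cycs, Cox6b1, Atp5g3, Idh3b, Acaa2 and Vegfb sit lower in all 3.

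In all, 1700 of 13385 genes were called (12.7%), 915 higher (6.84%) and 785 lower (5.86%). Recentring each library on its median, which takes the median change from 0.11 to 0.04, gave 551 higher and 910 lower, so 53.8% of the calls were higher as deposited and 37.7% after recentring. The count of higher genes was 599 without knockout-labelled library 1, and each gene named in the text keeps its direction under recentring. Groups of libraries did not overlap for 32.2% of the 12989 genes with a value in all 6, 21.7% with the knockout-labelled libraries higher and 10.6% with them lower.

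The clearest pattern was in oxidative metabolism. Of 85 measured subunits of the nuclear-encoded respiratory chain and cytochrome c, 69 fell and none rose, with a median change of -0.58 (66.8% of wild type). Complex I had 28 of 36 genes lower and complex II 4 of 4. The list of complex III, which includes cytochrome c, had 10 of 10 lower, ATP synthase 14 of 18, and the terminal oxidase 13 of 17. The median chain gene stood at 7.91 to 7.98 in the wild types and at 7.32 to 7.53 in the knockout-labelled libraries, so every knockout-labelled library was below every wild type. The count of lower chain genes was 65 to 70 when any one of the 6 libraries was left out.

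Sdhb, the iron-sulfur subunit of succinate dehydrogenase (complex II), read 8.65, 8.77 and 8.75 in the wild types and 7.63, 7.70 and 7.68 in the knockout-labelled libraries. It fell by 1.05 ± 0.08, to 48.2% of wild type. Its partners did not fall alike: Sdha fell by 0.82 ± 0.10, Sdhc by 0.34 ± 0.08 and Sdhd by 0.30 ± 0.10. The call of Sdhd (adjusted p = 0.0353) was lost when any library except wild-type library 1 was left out, with adjusted p from 0.0643 to 0.129.

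Cox6b1, a subunit of cytochrome c oxidase, read 9.18, 9.10 and 9.14 in the wild types and 7.99, 8.12 and 8.15 in the knockout-labelled libraries, and fell to 48.1%. Cycs, cytochrome c, fell by 0.76 ± 0.09. In complex I, Ndufab1, the acyl carrier subunit, fell by 1.01 ± 0.06, while Ndufb4, an accessory subunit, changed by -0.09 and was not called. Among ATP synthase genes, Atp5g3, which encodes a c-ring subunit, fell by 0.88 ± 0.09, while Atp5g2, which encodes the same mature subunit, changed by 0.10 and was not called. In the cytochrome c oxidase list Cox6b2, the testis-type form of Cox6b1, stood near the floor of the table and changed by +1.54 ± 0.60, which was not called (adjusted p = 0.107). It was called without wild-type library 1 (2.29, adjusted p = 0.011) and with array weights (1.66, 0.0285).

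All but one of 17 TCA cycle genes fell (16, median -0.72). The exception was Pcx, pyruvate carboxylase, at -0.13. Idh3b, the beta subunit of the NAD-dependent isocitrate dehydrogenase, read 7.85, 7.93 and 8.01 in the wild types and 6.85, 6.97 and 6.98 in the knockout-labelled libraries, a fall to 50.2% with no overlap. Dlst, a subunit of the 2-oxoglutarate dehydrogenase complex, fell by 1.22 ± 0.09. Me3, a mitochondrial malic enzyme, had the deepest fall of the list, 1.95 ± 0.13, from 1.72, 1.80 and 2.10 to -0.33, -0.07 and 0.16.

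Of 13 genes of pyruvate entry, the pyruvate dehydrogenase complex and its regulators, 9 fell (median -0.59). Dlat, the acetyltransferase of the pyruvate dehydrogenase complex, fell by 1.16 ± 0.08. Both phosphatases that switch the complex on, Pdp1 and Pdp2, were called lower at -1.07 and -1.11. The call of Pdp2 was lost without knockout-labelled library 1 (-0.89, adjusted p = 0.111) or wild-type library 2 (-0.86, 0.115). None of the 4 kinases that switch it off was called, and Pdk4 read 8.26, 8.67 and 8.68 against 7.81, 7.66 and 8.38, with overlapping groups.

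Fatty acid oxidation moved in the same direction: 20 of 25 genes fell, none rose, and the median change was -0.72. Acaa2, the last thiolase of mitochondrial beta-oxidation, read 7.79, 7.88 and 7.71 in the wild types and 6.29, 6.54 and 6.83 in the knockout-labelled libraries, and fell to 42.3%. Echs1, an enoyl-CoA hydratase, fell by 1.04 ± 0.11. Cpt1b, the muscle transferase at the entry of fatty acids into mitochondria, changed by -0.42 ± 0.14 and was not called (adjusted p = 0.0569, and 0.0172 with the 6 libraries alone). Acot1 had the lowest change of the list, -2.00 ± 0.83, but was not called, and reads may be shared with its near copy Acot2.

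Among 28 genes of lipid uptake and droplets, 8 fell and 1 rose. Fabp3, the muscle fatty acid binding protein, read 12.21, 12.20 and 12.21 in the wild types and 10.17, 10.91 and 11.23 in the knockout-labelled libraries, a fall of 1.44 ± 0.27. Dgat2, which makes triglyceride, fell by 1.95 ± 0.30, and Plin5, a droplet protein that contacts mitochondria, by 1.29 ± 0.24. Vldlr, a lipoprotein receptor, rose by 0.62 ± 0.15. The near-equal wild-type values of Fabp3 follow from the scale: it held rank 6 of its library in all 3 wild types, and the authors' quantile normalization gives like ranks like values. Its rank was 24, 14 and 12 in the knockout-labelled libraries.

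Branched-chain amino acid and ketone catabolism fell in 15 of 21 genes (median -0.55), for example Hibadh, a dehydrogenase of valine breakdown, by 0.76 ± 0.08. Of 17 creatine and adenine nucleotide genes 2 rose and 3 fell (median -0.02). Slc25a4, the adenine nucleotide translocator of muscle mitochondria, read 12.08, 12.07 and 12.08 in the wild types and 10.67, 10.74 and 10.83 in the knockout-labelled libraries, moving from rank 7 to ranks 15 to 17, and fell to 39.9%. Ckmt2, the mitochondrial creatine kinase, fell by 0.81 ± 0.12. In contrast Gamt, which makes creatine (chr10:80258151-80261012), read 1.24, 1.27 and 1.37 in the wild types and 4.22, 4.14 and 4.19 in the knockout-labelled libraries. It rose by 2.89 ± 0.43 (7.41-fold), the largest rise among the called genes whose level reached the median.

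The rest of the mitochondrion moved less. Of 79 mitochondrial ribosomal proteins 35 fell and 2 rose (median -0.22), of 45 import and protease genes 21 fell and 2 rose (median -0.24), and of 41 assembly factors 19 fell (median -0.33). The count of lower mitochondrial ribosomal proteins was 23 with the 6 libraries alone. Mrpl14, a protein of the large subunit, fell by 1.33 ± 0.10, the deepest change of its list, while Mrps18a rose by 0.44 ± 0.08. Cox10, which makes the haem of cytochrome c oxidase, fell by 1.08 ± 0.11.

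Of 25 genes of mitochondrial shape 15 fell. Mfn1, which fuses outer membranes, read 5.71, 5.68 and 5.74 in the wild types and 4.35, 4.23 and 4.17 in the knockout-labelled libraries, to 36.3% of wild type. Mtfp1, a fission protein, fell by 1.63 ± 0.16. Sod2, the mitochondrial superoxide dismutase, fell from 5.99, 5.99 and 6.02 to 4.57, 4.69 and 4.68, and 10 of 30 antioxidant genes fell with 1 rise. Tfam and Tfb2m, which act on mitochondrial DNA, each fell by 0.53. Genes of the mitochondrial genome itself have no values in the deposited table and were not analysed here.

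**Figure D2:**
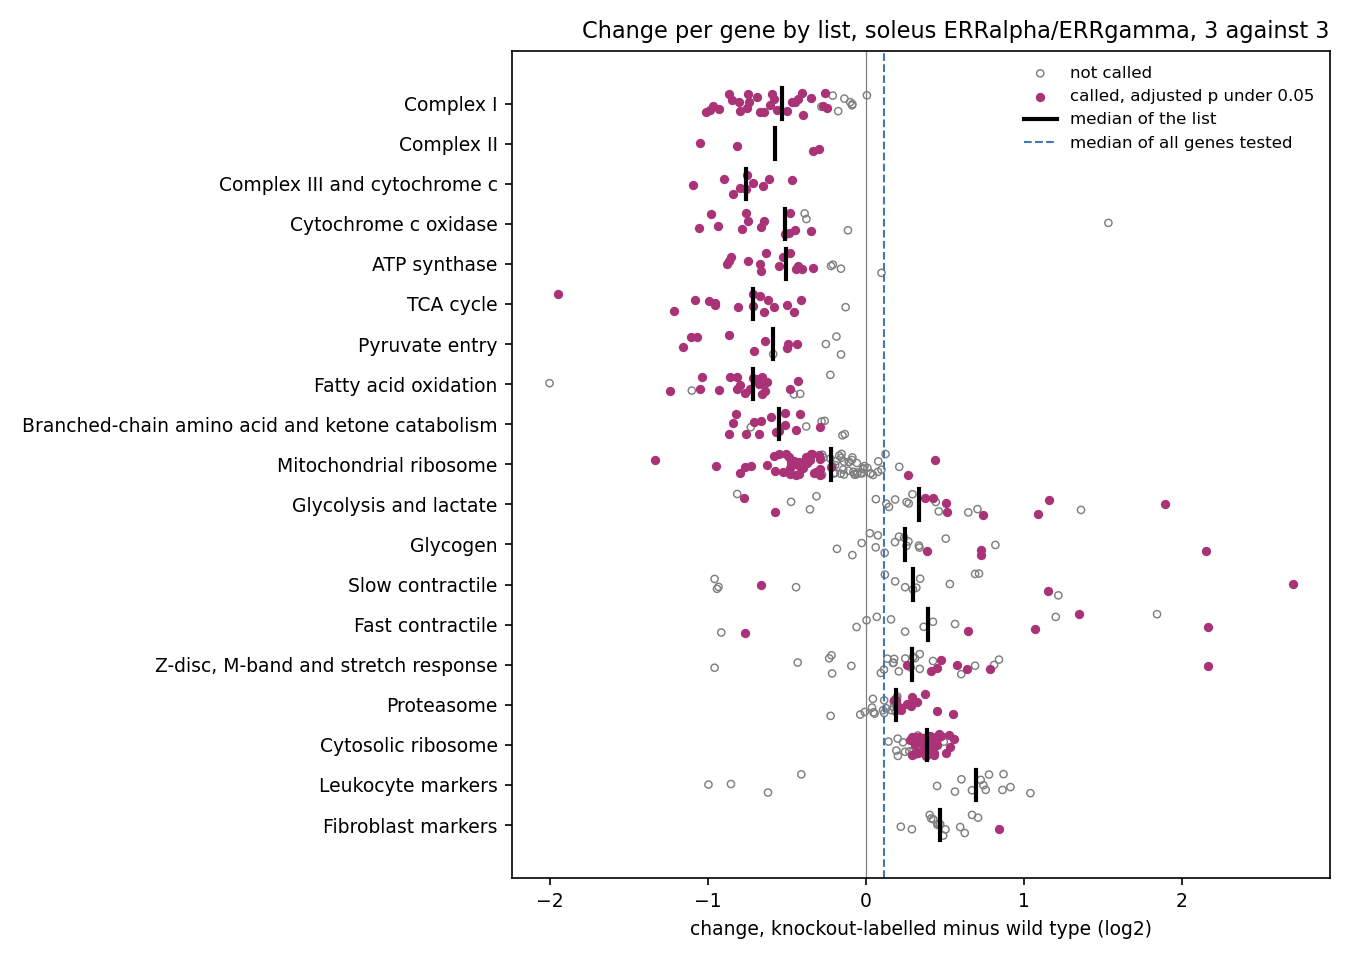
Change of every tested member of 19 lists, knockout-labelled minus wild type in log2, one point per gene. Filled points were called, open points were not, black bars are list medians and the dashed line is the median of all genes tested (0.11). The oxidative lists lie left of 0 with few exceptions, and the cytosolic ribosome lies as a narrow band right of the dashed line.

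Sequences upstream of genes that fell are shown because the receptors bind DNA there in other settings; whether they bind in these muscles was not measured. Promoter windows from RefSeq (GRCm38.p6, 250 bases before to 50 after the start) matched 10249 of the 13404 genes kept. The extended half-site TNAAGGTCA, searched on both strands, was in the windows of 97 of these genes (0.946%), 3 of 605 called lower (0.496%), 7 of 716 called higher (0.978%) and 3 of 68 respiratory chain genes (4.41%). The 3 chain genes were Atp5g3, Sdhd and Ndufb4, of which Ndufb4 was not called. The extended site was also in 2 of 41 cytosolic ribosomal genes (4.88%) and 1 of 24 glycolysis and lactate genes (4.17%). It was in 0 genes of the TCA cycle, pyruvate entry, fatty acid oxidation, branched-chain, mitochondrial ribosome and proteasome lists. The shorter AGGTCA, which every extended site contains, was in 15.1% of kept, 19.5% of lower, 12.2% of higher and 23.5% of chain genes. Across the other lists searched, its share ran from 8.33% (pyruvate entry) to 33.3% (TCA cycle, and glycolysis and lactate), with 32.0% in the proteasome list. With TCAAGGTCA in place of the open position the shares were 0.341% of kept, 0.496% of lower, 0.559% of higher and 2.94% of chain genes. The third gene called lower with an extended site was Msrb2, a mitochondrial repair enzyme, with a change of -0.62. The 250 bases before the start are given for Atp5g3, whose extended site begins 52 bases before the start, and for the 3 largest falls among the oxidative lists with AGGTCA before the start and no annotated exon in the stretch. All 4 genes lie on the minus strand, and the sequences are written on the strand of the gene with the matches in capitals (a match on the other strand reads in reverse complement).
Atp5g3 (chr2:73911327-73911576): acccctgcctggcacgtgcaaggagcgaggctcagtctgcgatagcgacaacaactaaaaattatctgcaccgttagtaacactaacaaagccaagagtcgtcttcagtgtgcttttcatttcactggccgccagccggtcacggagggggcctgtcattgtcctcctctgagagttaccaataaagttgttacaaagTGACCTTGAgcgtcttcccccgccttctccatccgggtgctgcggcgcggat
Ppm1k (chr6:57535488-57535737): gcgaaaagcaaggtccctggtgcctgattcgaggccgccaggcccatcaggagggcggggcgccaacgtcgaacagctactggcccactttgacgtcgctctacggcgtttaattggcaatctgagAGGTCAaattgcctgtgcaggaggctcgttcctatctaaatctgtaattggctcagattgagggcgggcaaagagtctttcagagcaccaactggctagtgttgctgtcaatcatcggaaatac
Acadvl (chr11:70015429-70015678): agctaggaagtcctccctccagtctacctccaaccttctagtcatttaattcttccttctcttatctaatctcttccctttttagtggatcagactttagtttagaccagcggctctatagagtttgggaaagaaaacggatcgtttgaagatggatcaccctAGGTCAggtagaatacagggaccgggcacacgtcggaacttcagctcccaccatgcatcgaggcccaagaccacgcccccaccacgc
Fh1 (chr1:175625636-175625885): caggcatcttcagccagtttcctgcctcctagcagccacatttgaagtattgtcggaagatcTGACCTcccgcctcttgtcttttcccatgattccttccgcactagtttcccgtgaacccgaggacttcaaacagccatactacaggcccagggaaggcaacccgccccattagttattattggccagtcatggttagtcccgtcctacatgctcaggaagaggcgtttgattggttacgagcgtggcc

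The match of Atp5g3 reads TCAAGGTCA on the opposite strand. Ppm1k, a phosphatase that activates branched-chain keto acid breakdown, fell by 0.84 ± 0.25, Acadvl, the very-long-chain acyl-CoA dehydrogenase, by 0.82 ± 0.12, and Fh1, fumarase, by 0.72 ± 0.07. The call of Ppm1k (adjusted p = 0.024) was lost without wild-type library 2 (-0.45, adjusted p = 0.265), knockout-labelled library 1 (0.101) or knockout-labelled library 3 (0.0513), and with the 6 libraries alone (0.131) or the 18 soleus libraries (0.0804).

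Glycolytic genes moved the other way. Of 26 glycolysis and lactate genes 8 rose and 2 fell, with a median change of 0.34. Aldoa, the aldolase of muscle, read 10.30, 10.19 and 10.45 in the wild types and 11.39, 11.21 and 11.62 in the knockout-labelled libraries, 2.13-fold higher. Eno3, the muscle enolase, rose by 1.16 ± 0.15 and Pgam2, the muscle phosphoglycerate mutase, by 0.74 ± 0.11. Slc16a3, which exports lactate, read 2.75, 2.30 and 2.83 in the wild types and 4.54, 4.42 and 4.59 in the knockout-labelled libraries, and rose by 1.89 ± 0.26, while Slc16a1, a transporter more typical of lactate uptake, fell by 0.57 ± 0.14. The first steps of the pathway were not called: Hk2, hexokinase, changed by -0.31 ± 0.21 and Pfkm, phosphofructokinase, by 0.26 ± 0.12.

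Glycogen genes rose in 4 of 20 cases and none fell. Stbd1, which tethers glycogen to membranes, read 2.16, 2.49 and 2.27 in the wild types and 4.30, 4.44 and 4.65 in the knockout-labelled libraries, 4.46-fold higher. Pygm, muscle glycogen phosphorylase, and Ugp2, which supplies the sugar nucleotide for glycogen, each rose by 0.73. Car3, the abundant carbonic anhydrase of slow fibres, rose from 10.53, 11.17 and 10.59 to 12.81, 12.47 and 12.23.

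Contractile genes gave no uniform shift of fibre type. Of 17 slow contractile genes 2 rose and 1 fell, and of 16 fast ones 4 rose and 1 fell. Changes lay above 0 in 12 slow and 13 fast genes, and in 8773 of all 13385 genes tested. The median slow gene stood at 8.92 to 9.04 in the wild types and 9.56 to 9.77 in the knockout-labelled libraries. The median fast gene stood at 8.69 to 9.08 and 9.09 to 9.18. The summed levels of both lists overlapped between the groups. Myh7, the slow myosin heavy chain that marks soleus, read 9.32, 9.87 and 9.43 in the wild types and 10.41, 10.10 and 9.70 in the knockout-labelled libraries, and was not called (0.53 ± 0.94, adjusted p = 0.782). Myh2, the myosin of fast oxidative fibres, read 10.06, 9.98 and 10.05 against 9.06, 9.14 and 9.13 without overlap. Its change of -0.92 ± 0.35 was not called in the fit of all libraries (adjusted p = 0.085), but was called with the 18 soleus libraries (0.0103) and with the 6 libraries alone (7.38e-04). Myh7 marks the tissue: in the wild-type EDL of the class it read -1.73, -1.96 and -1.42. In the knockout-labelled EDL it read 3.71, -1.03 and 2.84. The fit of all libraries pools the spread of all 12 groups, EDL included. The SE of Myh7 is therefore not the spread of its soleus libraries alone. Myh1, a fast myosin, read 8.41 to 8.79 in the wild types and 9.03 to 9.29 in the knockout-labelled soleus and was not called (0.56 ± 0.43).

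Wild-type library 2 was low in fast genes: Myh4, the fastest heavy chain, read 3.27 there against 7.18 and 7.14 in the other wild types, and Actn3, the fast alpha-actinin, 3.58 against 6.16 and 5.89. Actn3 rose by 2.16 ± 0.58 over the 3 wild types, and by 1.35, no longer called (adjusted p = 0.142), without that library. Its call was also lost with the 6 libraries alone (0.0591) and with the 18 soleus libraries (0.1). Myl1, the fast light chain, read 11.57, 10.34 and 11.55 against 12.23, 12.09 and 12.37 and rose by 1.07 ± 0.22, a call lost with the 6 libraries alone (adjusted p = 0.0678). Tnnt3, fast troponin T, went the opposite way from 11.97, 11.75 and 11.96 to 10.92, 11.06 and 11.40, a fall of 0.77 ± 0.16.

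The slow genes were as mixed. Sln, sarcolipin, which binds the sarcoplasmic calcium pump, read 4.73, 5.97 and 4.89 in the wild types and 8.49, 7.88 and 7.32 in the knockout-labelled libraries, 6.51-fold higher. Mb, myoglobin, read 12.80 in all 3 wild types (rank 2 in each) and 12.09, 12.22 and 12.10 in the knockout-labelled libraries (ranks 6 and 7), a fall of 0.66 ± 0.17. The troponins Tnni1 and Tnnt1 of slow fibres were not called in the fit of all libraries, at 0.72 ± 0.47 and 0.34 ± 0.42. The call of Tnni1 was gained with the 18 soleus libraries (adjusted p = 0.0387) and with the 6 alone (0.00815).

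Of 9 developmental and cardiac sarcomere genes 3 rose and 1 fell. Myh3, embryonic myosin (chr11:67078300-67102291), read 2.27, 2.65 and 2.22 in the wild types and 5.90, 5.02 and 4.22 in the knockout-labelled libraries, 6.34-fold higher. Myh8, perinatal myosin (chr11:67277124-67308634), read -1.34, -0.58 and -0.32 in the wild types and 2.66, 2.80 and 3.19 in the knockout-labelled libraries, a rise of 3.63 ± 0.56. Both genes are also background markers of regenerating fibres. Myog, myogenin, read 1.23, 1.48 and 1.26 against 2.70, 2.61 and 2.97 and rose by 1.44 ± 0.43 (adjusted p = 0.0234). That call was lost without wild-type library 1 or 3 or knockout-labelled library 1 or 3, with adjusted p from 0.0571 to 0.0823. Myh13, the extraocular myosin, fell by 2.10 ± 0.33 from a low level.

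**Figure D3:**
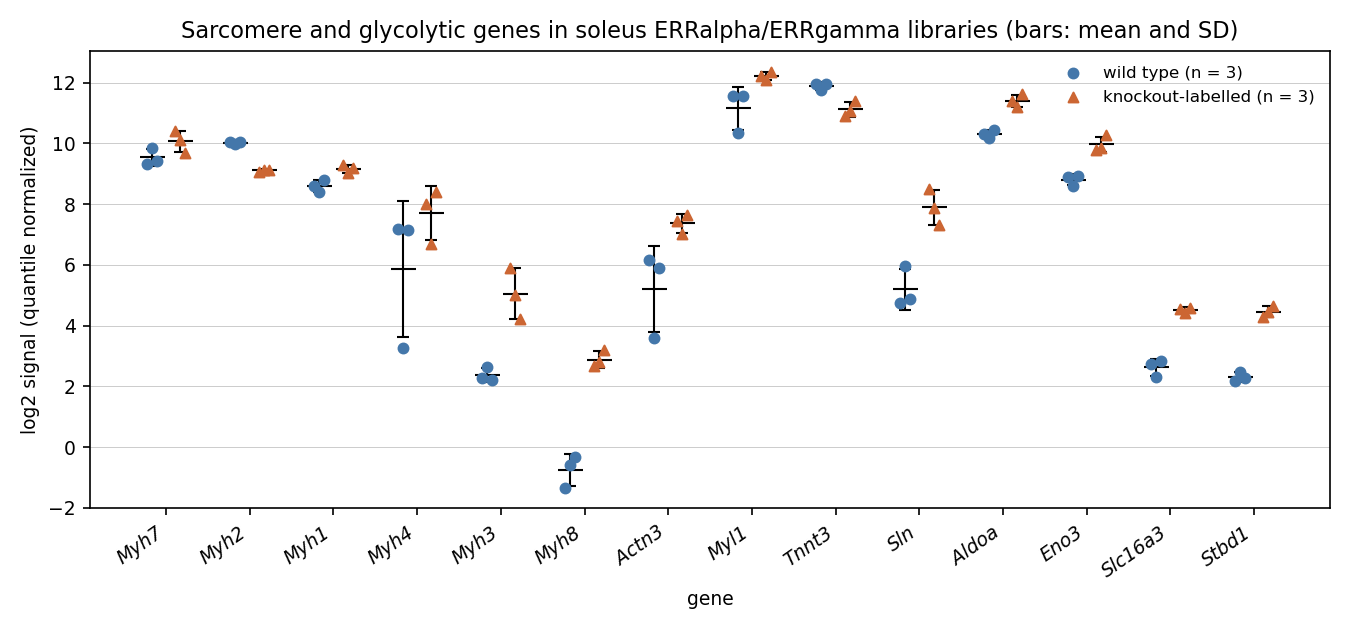
Log2 signal of each library for myosin heavy chains, other sarcomere genes and glycolytic or glycogen genes. Circles are wild-type and triangles knockout-labelled soleus libraries (n = 3 each), and bars are mean and SD. Myh3, Myh8, Aldoa, Eno3, Slc16a3 and Stbd1 separate the groups, while Myh4 and Actn3 have 1 low wild type, library 2.

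Of 32 Z-disc and stretch genes 8 rose and none fell (median 0.29), among them Actn3, described above, and Des, desmin, by 0.64 ± 0.13. Of 31 proteasome genes 13 rose and none fell (median 0.19), but the count was 4 after recentring, 7 with the 6 libraries alone, 7 with the 18 soleus libraries, 7 without knockout-labelled library 1 or wild-type library 2 and 8 without wild-type library 3. Of 54 cytosolic ribosomal proteins 44 rose and none fell (median 0.39), for example Rpl4 by 0.52 ± 0.06. That count was 28 with the 18 soleus libraries and 29 without wild-type library 2. Trim63, an atrophy ubiquitin ligase, rose by 0.47 ± 0.16 (adjusted p = 0.0427), a call that was lost after recentring (0.122), without a filter (0.0527), with the 18 soleus libraries (0.0796) and when any library except knockout-labelled library 2 was left out (0.0785 to 0.165).

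Among secreted and signalling genes, Vegfb, a growth factor tied to fatty acid handling, read 6.08, 6.25 and 6.26 in the wild types and 4.76, 4.85 and 4.65 in the knockout-labelled libraries, to 36.7%. Fndc5, the precursor of irisin, fell to 35.2%. Slc41a1, a magnesium transporter, was the largest fall among the called genes whose level reached the median, from 4.24, 4.49 and 4.41 to 2.35, 2.07 and 2.19. Scx, a tendon transcription factor, and Aebp1, a matrix protein, rose by 2.13 ± 0.25 and 2.06 ± 0.24, while 0 of 32 collagens and matrix genes was called by limma (1 at an unadjusted p under 0.05).

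Markers of other cells in the muscle gave few calls. Of 16 leukocyte markers none was called by limma (0 at an unadjusted p under 0.05), although their median change was 0.70 and their summed level was higher in every knockout-labelled library (6.92 to 7.38) than in any wild type (6.20 to 6.76). Fibroblast markers had a median change of 0.47 with 1 of 15 called, and their summed levels met (9.12 to 10.10 in the wild types, 10.09 to 10.35 in the knockout-labelled). Endothelial markers had a median of -0.25 with 1 of 15 called, and their summed level was 7.37 to 7.40 in the wild types and 7.07 to 7.31 in the knockout-labelled libraries. Of 11 smooth muscle and pericyte markers 7 changed below 0, with 1 rise, 1 fall and a median of -0.17. The 1 rise was Des, which muscle fibres also express and which makes up most of the summed level of that list. The median marker of the list stood at 2.61 to 2.83 in the wild types and 2.02 to 2.26 in the knockout-labelled libraries. The single Schwann cell call, Mbp, read 4.44 in wild-type library 3 against 1.53 and 0.19 in the others: its change was -1.77, and -0.58 without that library (adjusted p = 0.345). The call was also lost without knockout-labelled library 1 (0.0535) or 2 (0.117), with the 6 libraries alone (0.262) and with the 18 soleus libraries (0.123). The part of these cells in the changes of Myh3, Scx and Aebp1 was not tested, and in whole muscle fewer cells of a type cannot be told apart from less RNA per cell.

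Immediate early genes were uneven between libraries. Jun, a subunit of the AP-1 factor, rose by 0.83 ± 0.11 and was the only call of 18, whereas the list's median change was 0.77. Fos read 1.07, 0.78 and 3.57 in the wild types and 3.57, 3.28 and 5.44 in the knockout-labelled libraries, with the third library of each group the highest. It was not called (2.29 ± 0.86, adjusted p = 0.0831), and was called without wild-type library 3 (3.17, adjusted p = 0.0223).

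The same class in EDL was set beside the soleus to ask where the muscles respond unequally. In EDL itself 18.1% of the genes tested were called, 11.1% higher and 6.95% lower. Of 13342 genes 276 differed between the muscles (2.07%), 200 with a higher soleus change (1.5%) and 76 with a lower one (0.57%). Of the 85 chain genes 57 differed, all with the higher change in soleus; the median change of the 85 was -1.28 in EDL and -0.58 in soleus. The TCA cycle differed in 13 of 17 genes, 12 with a smaller fall in soleus and Me3 with a larger one (-1.95 in soleus, -1.08 in EDL). Fatty acid oxidation differed in 1 of 25 genes, at medians of -1.05 in EDL and -0.72 in soleus.

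Chchd10, a protein of mitochondrial cristae, read 7.47, 7.48 and 7.60 in the wild-type soleus and 7.17, 7.21 and 7.18 in the knockout-labelled soleus, a change of -0.33 ± 0.09, against -2.82 in EDL (difference 2.48 ± 0.13, adjusted p = 5.79e-14). The soleus fall alone was called at adjusted p = 0.0106 and lost without wild-type library 3 (0.0616). Got2, the mitochondrial aspartate aminotransferase, fell by 0.44 in soleus and by 1.94 in EDL. S100a1, a calcium sensor, rose by 0.55 ± 0.11 in soleus and changed by -1.02 in EDL.

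Of 26 glycolysis and lactate genes 7 differed, all with the higher change in soleus, and 5 of them had risen in soleus and were not called in EDL. Aldoa changed by 1.09 in soleus and 0.11 in EDL (adjusted p of the difference = 0.00622), Eno3 by 1.16 and 0.19 (0.0054), Pgam2 by 0.74 and 0.09 (0.014) and Ldha, lactate dehydrogenase A, by 0.51 and -0.06 (0.031). The fifth, Slc16a3, changed by 1.89 and 0.52 (0.043). Slc16a1 fell less in soleus than in EDL, at -0.57 and -1.41 (0.0206). Ldhb, the oxidative lactate dehydrogenase, changed by 0.29 in soleus, not called, and by -1.49 in EDL (adjusted p of the difference = 9.76e-07). Myh8 changed by 3.63 in soleus and 0.03 in EDL, with an adjusted p of the difference of 0.00813. Phkb, a subunit of phosphorylase kinase, changed by 0.34, not called, in soleus and by 2.47 in EDL (adjusted p of the difference = 4.61e-08).

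A few genes fell in soleus with little or opposite change in EDL. Lrtm1, a membrane protein, fell from 2.79, 2.20 and 1.91 to 0.29, 0.12 and 0.42 and changed by 0.17 in EDL. Padi2, a peptidyl arginine deiminase, fell by 2.10 ± 0.32 in soleus and changed by -0.31 in EDL. Fbxo40, a ubiquitin ligase adaptor of muscle, fell by 0.73 ± 0.12 in soleus and changed by 0.18 in EDL. Each of these differences was called (adjusted p = 0.00145, 0.0255 and 8.03e-04).

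**Figure D4:**
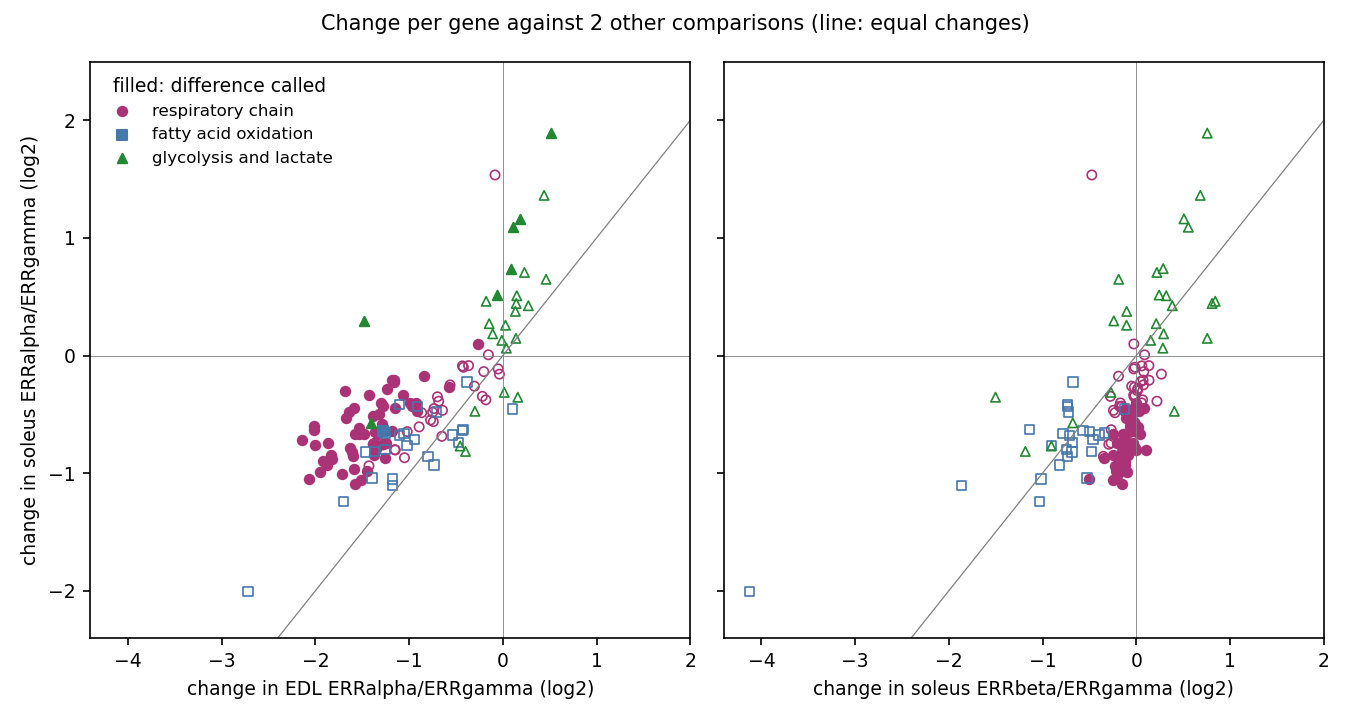
Change in soleus ERRalpha/ERRgamma (vertical) against the change in EDL of the same class (left) and in soleus ERRbeta/ERRgamma (right), in log2, one point per gene of the respiratory chain, fatty acid oxidation and glycolysis. Filled points differ by the test of the difference and the line marks equal changes. All 57 filled chain genes lie above the line on the left and all 49 below it on the right, and fatty acid oxidation has no filled point on the right.

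Comparison with the other soleus classes sets the ERRalpha/ERRgamma deletion beside other deletions, by their labels, in the same muscle. Each class has its own wild types. The whole-gene signal of Esrra was not lower in soleus ERRalpha: it changed by 0.33 ± 0.12 and was not called (adjusted p = 0.224). The ERRalpha/ERRgamma change of Esrra minus this one was -0.91 and was called (adjusted p = 6.93e-04). In soleus ERRalpha, 95 of 13374 genes were called (0.71%, of which 0.464% higher and 0.247% lower) and 4 of 85 chain genes fell. The ERRalpha/ERRgamma change differed from it in 635 of 13360 genes (4.75%), 244 higher (1.83%) and 391 lower (2.93%), and the recentred count of higher ones was 155. All 50 chain genes that differed were lower in ERRalpha/ERRgamma, as were 16 of 17 TCA cycle and 15 of 25 fatty acid oxidation genes. Sln rose in ERRalpha/ERRgamma and changed by -0.47 in ERRalpha (adjusted p of the difference = 0.0311). Of the cytosolic ribosomal proteins 39 of 54 differed, all higher in ERRalpha/ERRgamma, at medians of 0.39 and -0.13.

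In soleus ERRbeta/ERRgamma, 898 of 13375 genes were called (6.71%, of which 3.16% higher and 3.55% lower), and lists that fell together in ERRalpha/ERRgamma came apart. Fatty acid oxidation fell in 23 of 25 genes there, at a median of -0.72, the same as in ERRalpha/ERRgamma, and 0 of 25 genes differed by limma (4 at an unadjusted p under 0.05). Branched-chain and ketone catabolism fell in 17 of 21 at a median of -0.54, and 0 of 21 differed by limma (2 at an unadjusted p under 0.05). The respiratory chain fell in only 8 of 85 genes at a median of -0.06, and 49 of 85 differed, all lower in ERRalpha/ERRgamma. In all, 161 of 13365 genes differed (1.2%), 43 higher (0.322%) and 118 lower (0.883%). Leaving out ERRbeta/ERRgamma knockout-labelled library 2 raised the total to 323, with 156 higher, and the chain count stayed between 42 and 51 without any one of the 12 libraries.

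Single genes show the split. Acaa2 changed by -1.24 in ERRalpha/ERRgamma and -1.03 in ERRbeta/ERRgamma (adjusted p of the difference = 0.715), and Fabp3 by -1.44 in both. Idh3b changed by -0.99 and -0.17 (adjusted p of the difference = 4.67e-06), Cox6b1 by -1.06 and -0.24 (1.46e-05) and Dlat by -1.16 and -0.15 (4.67e-06). Esrrg itself changed by 1.21 and 1.09, with no called difference. Gnb5, a G protein subunit, fell by 1.76 ± 0.22 in ERRalpha/ERRgamma and changed by 0.32 in ERRbeta/ERRgamma (adjusted p of the difference = 1.53e-04). Rgs2, which shortens G protein signalling, rose by 1.56 ± 0.25 and changed by -0.52 (adjusted p of the difference = 7.79e-04).

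**Figure D5:**
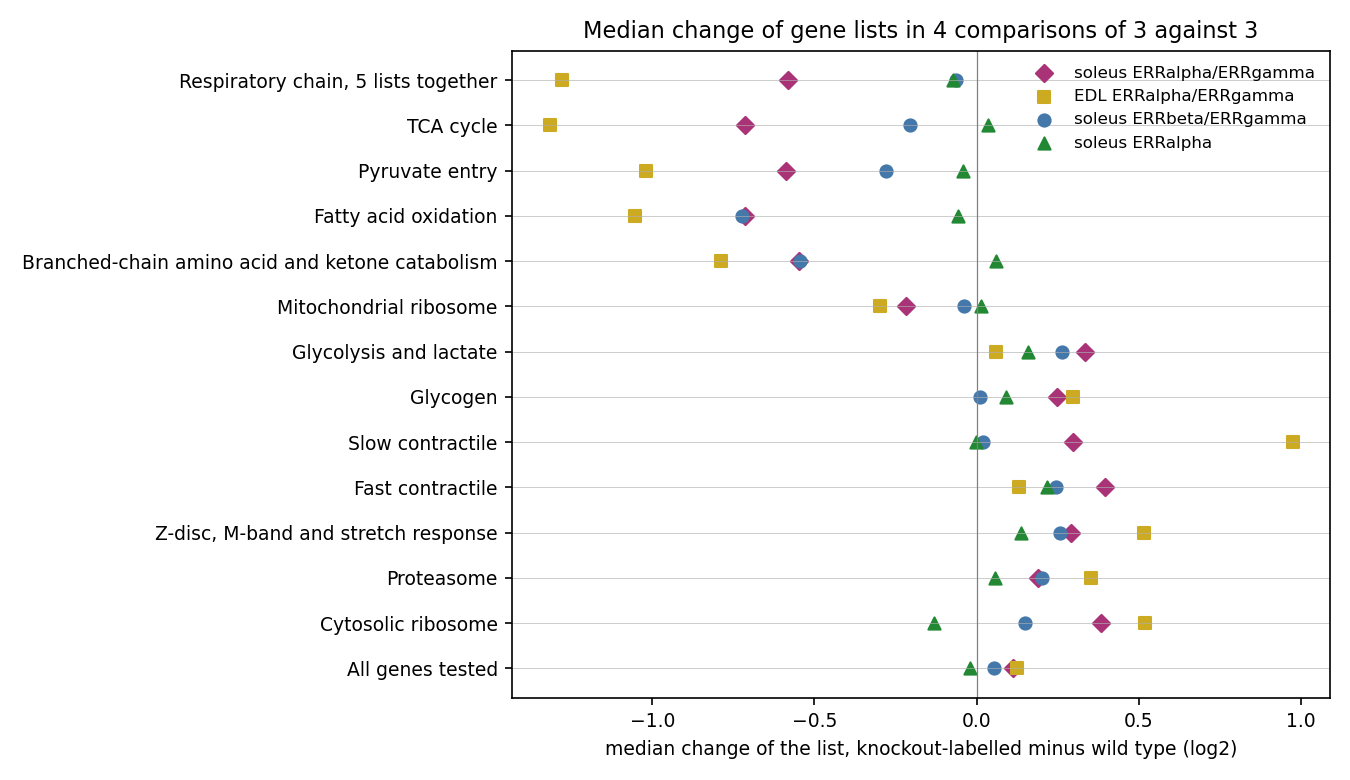
Median change of each gene list in log2, knockout-labelled minus wild type, in 4 comparisons of 3 against 3 libraries. In soleus ERRbeta/ERRgamma the respiratory chain sits at -0.06 and fatty acid oxidation at -0.72, while in soleus ERRalpha/ERRgamma they sit at -0.58 and -0.72.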

How the data were processed

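The authors deposited 1 table of log2 signals per gene for 36 libraries; its name says that values are logged and quantile normalized. Partek 6.6, GRCm38.p6 and mm10 stand in the submitters' processing notes. The sources used here name no aligner and no counting method, so depth is unknown and near-identical or overlapping genes may share reads. The log base was read from the spacing of low values (882 values lay 0.9 to 1.3 above the lowest of their gene and 39 at 0.4 to 0.8). Libraries came from 400 ng of RNA and 10 PCR cycles, per the labels' protocols. Of 45802 rows, 17873 genes had a value; 27 rows whose symbols had become dates were left out. Genes with a mean over all libraries above the 25th percentile were kept (13404). For that mean, empty cells were set to the lowest value of the table (-8.21), and in the fit they stayed missing. limma 3.58.1 (R 4.3.3) was fitted with 1 mean per group over the 36 libraries and 24 residual degrees of freedom, which gave changes, differences of changes and Benjamini-Hochberg adjusted p-values. The fit was tested on simulated data. Column names carry animal numbers: 2 of the 10 animals of the class and 14 of the 22 animals of the series gave a library of each muscle, and the correlation within an animal over the series was 0.137.

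The genes, the 46 lists and the comparisons were chosen with earlier results of these data known. Named genes were the receptors; the 15 greatest called changes in each direction, for non-overlapping groups and a level no lower than the median; up to 4 called members of each list per direction, by adjusted p, and all members of lists of 12 or fewer; and the 5 greatest differences per direction of each difference contrast. Chosen outside this rule, after values were seen, were Acadvl, Acot1, Atp5g2, Cox6b2, Cpt1b, Fh1, Fos, Hk2, Ldha, Ldhb, Msrb2, Myh1, Myh2, Myh4, Myh7, Ndufb4, Pcx, Pdk4, Pdp1, Pdp2, Pfkm, Phkb, Ppm1k, Tnni1, Tnnt1 and Trim63. Gene coordinates are GENCODE M21 on GRCm38, and promoter sequences are RefSeq.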

Additional observations from a re-analysis of the deposited data

Results flagged for a closer look

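The following changes differed between muscles or between classes in a test of the difference itself (limma, Benjamini-Hochberg adjusted p under 0.05 over all genes). Groups of 3 libraries are too small for a test of single outlying libraries.

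Between muscles, 57 respiratory chain genes had a higher (less negative) change in soleus than in EDL. The soleus change minus the EDL change was 2.48 for Chchd10, 1.66 for Esrra, 1.57 for S100a1 and 1.51 for Got2. It was -2.19 for Lrtm1, -1.79 for Padi2 and -0.91 for Fbxo40.

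Between the ERRalpha/ERRgamma and the ERRalpha class in soleus, 50 respiratory chain genes were lower in ERRalpha/ERRgamma. The difference was 3.17 for Sln, 2.09 for Stbd1 and 1.58 for Aebp1. It was -2.01 for Me3, -1.85 for Slc41a1 and -1.80 for Fabp3.

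Between the ERRalpha/ERRgamma and the ERRbeta/ERRgamma class in soleus, 49 respiratory chain genes were lower in ERRalpha/ERRgamma. The difference was 2.08 for Rgs2 and 1.37 for Stbd1, and -2.08 for Gnb5 and -1.56 for Me3.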

How the results depend on the processing

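No paired analysis was possible because no animal or replicate number in the table's columns ties a knockout-labelled to a wild-type library. The animal numbers tie only the muscles of 1 animal: a replicate block by animal over all 36 libraries, with 14 animals in both muscles (2 of them of the ERRalpha/ERRgamma class), gave 1715 called genes and 321 for the difference between muscles, and changed the call of none of the named genes. Recentring gave 551 higher genes, 4 higher proteasome genes, and 155 and 28 genes with a higher change than in the ERRalpha and ERRbeta/ERRgamma classes. The 6 libraries alone gave 23 lower mitochondrial ribosomal and 7 higher proteasome genes. The 18 soleus libraries gave 581 higher genes, 7 higher proteasome and 28 higher cytosolic ribosomal genes, and array weights gave 1432 higher genes. Without any one library, higher genes numbered 599 to 736, higher proteasome genes 7 to 14, higher cytosolic ribosomal genes 29 to 45, and genes with a lower change than in EDL 39 to 69. Genes that differed from ERRbeta/ERRgamma then numbered 122 to 323, of which 29 to 156 were higher. Pcx, not called, ranged from -0.228 to 0.0618. The causes were not tested. Lower chain genes stayed at 65 to 70 and lower TCA cycle genes at 16 without any one library. The depth behind the values is unknown, and 3 libraries per group limit the precision.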
